A study of Homo sapiens with 4 samples.

Results

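The DNA replication fork and origin genes are 38 genes taken as a named list, out of 60651 gene IDs in the count table, and all 38 were found and measured. They comprise the origin licensing factors, the MCM helicase and its activators, the replicative polymerases, the sliding clamp and its loader, single-strand binding and lagging-strand enzymes, and factors of chromatin assembly and fork protection. Their levels were followed in CHP134, an established human neuroblastoma line derived from an adrenal tumour and carrying amplified MYCN. Cells were collected after 24 h in 0.04% DMSO (the vehicle), in 5 µM 13cRA, in 10 µM doxazosin, or in a combination of 5 µM 13cRA with 10 µM doxazosin. 13cRA (13-cis retinoic acid, or isotretinoin) is a retinoid used in neuroblastoma therapy, and doxazosin is a blocker of alpha-1 adrenergic receptors. Each treatment is 1 sample, dispensed with the others on the same nanowell chip, and only wells that imaging showed to hold a single live cell were processed. Full-length cDNA without molecular identifiers was sequenced from 373 DMSO, 355 13cRA, 252 doxazosin and 307 combination cells.

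DNA replication is prepared in G1, when the origin recognition complex, CDC6 and CDT1 load MCM2-7 rings onto DNA. In S phase CDC45 and GINS turn each ring into a moving helicase, polymerase alpha-primase lays primers, and polymerases delta and epsilon extend them with the PCNA clamp, which the RFC complex loads. Many of these genes are transcribed together around the G1 to S transition under E2F transcription factors, so that in a growing line their transcripts are abundant in cycling cells.

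E2F words were frequent in the promoters of the list. RefSeq promoter windows on GRCh38.p14, from 250 bases before to 50 bases after the annotated start, were matched for 32 of the 38 genes. The windows of RPA3, MCM4, GINS4, RPA2, POLD3 and MCM5 were not matched. An E2F word, spelled TTTCCCGC, TTTCGCGC, TTTGGCGC or TTTGCCGC and searched on both strands, was present in 18 of the 32 windows (56.2%), against 3.99% of 27305 genes with such a window; a gene with several annotated starts counts once. In the bases before the start alone it was present in 12 of 32 (37.5%) against 3.40%. The word CCAAT, read by the NF-Y factor and also searched on both strands, was present in 19 of 32 windows (59.4%) against 39.7%. Below are the 160 bases before the start in 6 genes with an E2F word there, 5′ to 3′ on the gene's strand, with each match in capitals. MCM6, GINS2, PCNA and RFC3 are shown because they stood lower in the 13cRA library, and CDT1 and POLE because they hold the same words and stood higher there. In MCM6 words on opposite strands overlap at both places.
MCM6 (chr2:135876444-135876603, minus strand): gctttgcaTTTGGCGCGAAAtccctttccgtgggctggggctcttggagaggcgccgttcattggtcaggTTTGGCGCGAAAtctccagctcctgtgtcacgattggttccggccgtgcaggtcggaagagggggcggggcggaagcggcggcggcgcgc
GINS2 (chr16:85688955-85689114, minus strand): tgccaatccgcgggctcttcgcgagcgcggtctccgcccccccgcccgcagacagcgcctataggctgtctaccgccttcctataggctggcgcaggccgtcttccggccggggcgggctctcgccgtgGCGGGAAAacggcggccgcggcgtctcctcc
PCNA (chr20:5126623-5126782, minus strand): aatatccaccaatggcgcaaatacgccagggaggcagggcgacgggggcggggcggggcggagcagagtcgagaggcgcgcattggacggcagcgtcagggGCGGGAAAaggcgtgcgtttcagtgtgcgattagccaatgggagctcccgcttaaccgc
RFC3 (chr13:33817989-33818148, plus strand): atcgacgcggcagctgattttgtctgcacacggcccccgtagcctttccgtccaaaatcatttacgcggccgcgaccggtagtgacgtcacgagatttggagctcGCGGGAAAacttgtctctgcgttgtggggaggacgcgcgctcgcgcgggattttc
CDT1 (chr16:88803629-88803788, plus strand): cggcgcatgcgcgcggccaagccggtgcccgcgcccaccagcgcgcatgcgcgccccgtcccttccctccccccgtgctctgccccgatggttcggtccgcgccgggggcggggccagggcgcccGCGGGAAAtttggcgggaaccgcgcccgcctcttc
POLE (chr12:132687343-132687502, minus strand): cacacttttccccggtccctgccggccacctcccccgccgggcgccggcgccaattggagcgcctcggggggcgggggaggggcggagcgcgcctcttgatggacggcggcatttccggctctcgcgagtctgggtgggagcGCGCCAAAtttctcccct
A match is a description of the letters and not a bound site. Genes with and without the word overlapped in their difference between 13cRA and DMSO: the 18 genes with it had a median log2 difference of -0.32 (range -1.68 to 0.44) and the 14 without it a median of -0.55 (range -1.17 to 0.80).

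Levels were compared at equal depth. Each cell that passed the filter and had at least 34000 counts was thinned at random to 34000 counts, which left 328 DMSO, 249 13cRA, 235 doxazosin and 270 combination cells, and the thinned cells of a sample were summed and scaled to a total of 1000000 counts (CPM). A log2 difference compares 2 such levels after adding 1 CPM to each, and "past the fold" means a difference of 1.5-fold or more, in either direction as stated. With 1 sample for each treatment there is no replicate error and no test. The 95% Poisson intervals given for levels cover counting error only, and reads amplified without identifiers are not independent molecules. The intervals given for medians describe the spread over the genes of a list, which vary together. They do not measure a spread between samples, whether or not they include 0. The background is the 9552 genes with a symbol and a mean of at least 5 CPM over the 4 samples. The 13cRA cells stood apart as a library: at the same 34000 counts they held a median of 3895 genes, where DMSO cells held 4679.5, doxazosin cells 4771 and combination cells 4705, and their median mitochondrial share was 13.5% against 10.1 to 10.6%. Of the adrenergic neuroblastoma markers, MYCN, the oncogene amplified in this line, was at 752 to 1074 CPM over the 4 samples, and GATA3, a transcription factor of sympathetic cells, at 287 to 451 CPM, both highest in 13cRA, as were HAND2 and CHGA. ISL1 (50.6, 11.7, 46.9 and 17.1 CPM in DMSO, 13cRA, doxazosin and the combination) and STMN2 (189, 127, 259 and 134 CPM) were lower in both libraries with 13cRA, and PHOX2A was at 22.8, 17.0, 14.6 and 9.80 CPM. DBH and TH, which define mature noradrenergic cells, had no count in the thinned cells of any sample, which allows up to 0.269 to 0.375 CPM. None of the 5 leukocyte, endothelial, Schwann cell or epithelial markers reached 5 CPM in any sample, and 2 of 5 fibroblast markers did, with a summed fibroblast level of 9.37 to 12.4 CPM.

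In the 13cRA library the replication genes stood below DMSO as a group. Of the 38 genes 33 were lower and 5 higher, and the middle gene lay at -0.43 on the log2 scale (95% interval of this median over genes -0.57 to -0.26), where the median of all genes was -0.023 and 51.6% of them were lower. Past the fold, 11 genes were lower (28.9% of the list, against 12.7% of all genes) and 1 was higher (2.63%, against 13.2%). The 11 were CDC6, MCM2, MCM4, GINS1, GINS2, PRIM1, PCNA, RFC3, RFC5, RPA2 and FEN1, and the gene above was CHAF1A. The number depends on the draw and the scaling. A second random thinning gave 15 genes lower (against 13% of all genes), no random draw gave 14 (against 12.4%), and unthinned sums gave 19 (against 13.2%). A set of 14 ways of filtering, thinning and scaling left out windows of depth and of gene number. Those that only change the total move all genes by about the same amount. Under all 14, 9 of the 11, all but GINS2 and PRIM1, were lower past the fold, and CHAF1A was higher past it. With both windows added, only MCM2 and GINS1 were lower past it in all 16 settings. Lower by any amount were 30 of the 38 genes under all 14 and 20 in all 16 settings. CHAF1A was at 0.49 among cells of 4000 to 4600 genes. The shares of all genes lower, or past the fold, in every setting were not computed. The difference was smaller within a window of gene number. Among cells that held 4000 to 4600 genes after thinning (105 DMSO and 92 13cRA cells) the median was -0.05. There 22 genes were lower and 15 higher, with MCM10 counted in neither at -0.00. Past the fold there, 4 were lower (MCM2, MCM6, GINS1 and POLE2), where 11.5% of all genes were. Higher past it were 3 (ORC1, CDT1 and POLD1), where 14.2% were. That window lies above the median gene number of the 13cRA cells (3895) and below that of the DMSO cells (4679.5). Among cells of 34000 to 120000 counts before thinning (141 DMSO and 203 13cRA cells) the median was -0.37, with 31 genes lower and 7 higher. Past the fold at that depth, 10 were lower, where 14.3% of all genes were, and 2 higher, where 14.1% were. The part of the lower gene number of the 13cRA library in the group's difference was not tested beyond the gene-number window.

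**Figure D1:**
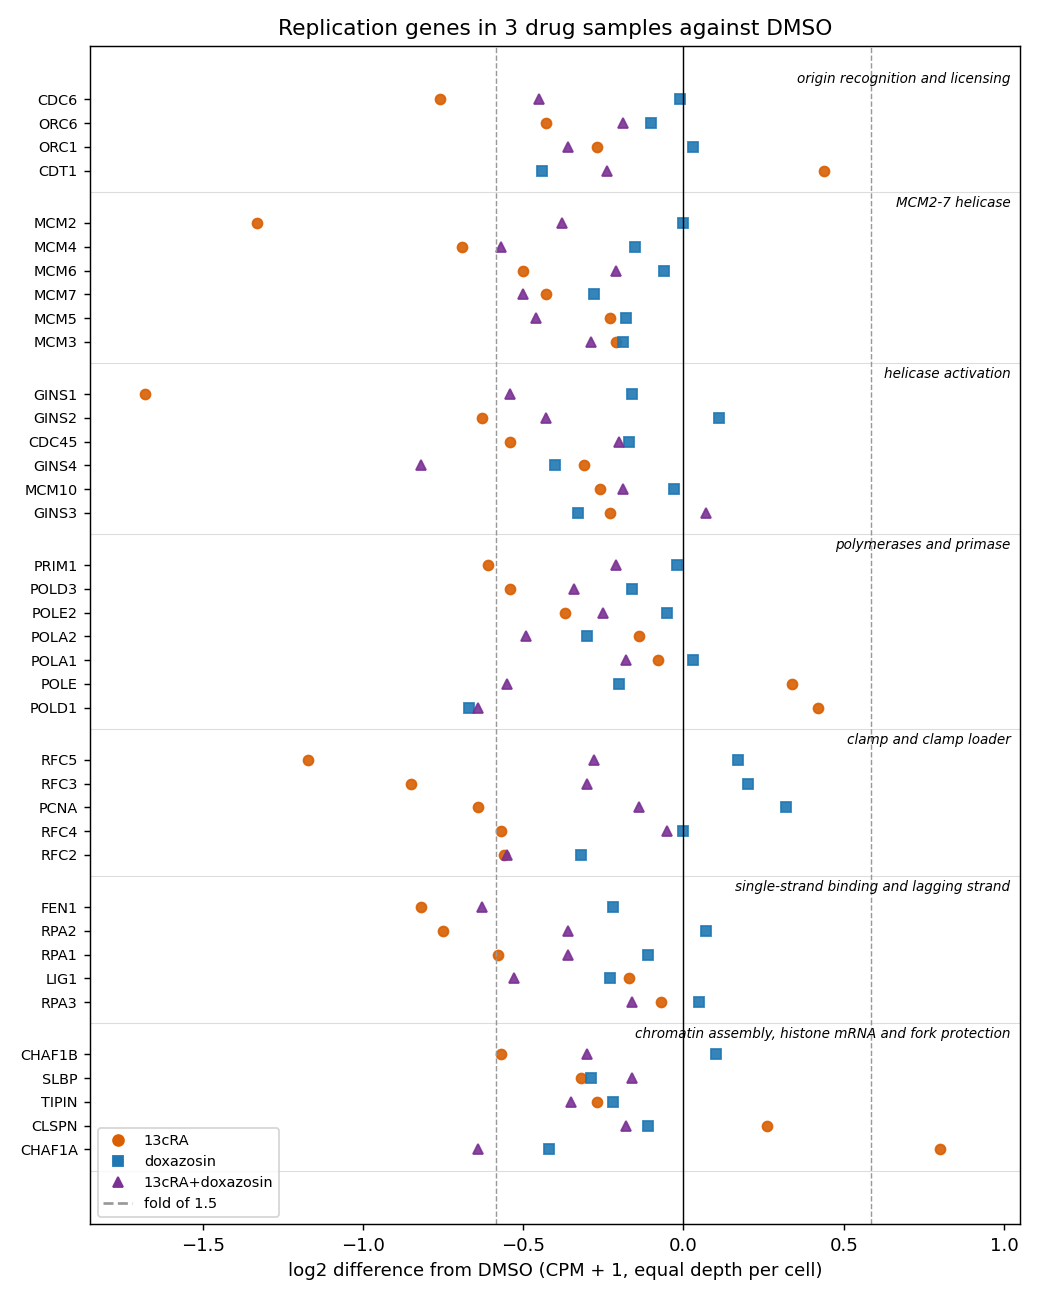
Log2 difference from DMSO (horizontal axis, CPM + 1 at 34000 counts per cell) of each of the 38 replication genes (rows, grouped by role) in the 13cRA, doxazosin and combination libraries. Dashed lines mark 1.5-fold. The 13cRA circles lie left of 0 for 33 genes, with GINS1 at -1.68 farthest left, and right of it for CDT1, POLD1, POLE, CHAF1A and CLSPN, while the doxazosin squares lie within the dashed lines for all genes but POLD1.

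Of the licensing factors, CDC6, the ATPase that brings MCM rings to the origin, was the one with the widest gap between 13cRA and DMSO. Its level was 318 CPM in DMSO (interval 307 to 328), 187 CPM in 13cRA (178 to 196), 316 CPM in doxazosin and 232 CPM in the combination (223 to 242). Both libraries with 13cRA were thus lower than both without it, with log2 differences of -0.76 for 13cRA against DMSO and -0.44 for the combination against doxazosin. ORC6, a subunit of the origin recognition complex, was at 183, 135, 171 and 161 CPM in the order DMSO, 13cRA, doxazosin and combination. ORC1, the largest ORC subunit, was at 36.0, 29.6, 36.9 and 27.8 CPM. For both ORC genes the libraries with 13cRA were again the 2 lowest, but the difference of ORC1 between 13cRA and DMSO, -0.27, ran from -0.97 to 0.73 over the alternatives, and was 0.73 among cells of 4000 to 4600 genes. CDT1, the partner of CDC6 in loading, ran the other way in 13cRA alone, at 29.1 CPM in DMSO (26.0 to 32.4), 39.8 CPM in 13cRA (35.7 to 44.3), 21.2 CPM in doxazosin (18.1 to 24.6) and 24.5 CPM in the combination (21.4 to 27.9). Only the 13cRA library exceeded DMSO for CDT1, by 0.44 on the log2 scale, and 1.5-fold was not reached.

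All 6 subunits of the MCM2-7 helicase were lower in 13cRA than in DMSO, by -1.33 to -0.21 on the log2 scale. All 6 were also lower in the combination, by -0.57 to -0.21. Of all genes, 51.6% were lower in 13cRA and 51.4% in the combination. Over the alternatives MCM3 and MCM5 reached 0.05 and 0.09 in 13cRA against DMSO, and MCM6 reached 0.29 in the combination. MCM2 stood farthest out, at 41.7 CPM in DMSO, 15.9 CPM in 13cRA (13.4 to 18.9), 41.8 CPM in doxazosin and 31.8 CPM in the combination (28.3 to 35.7). The 13cRA level of MCM2 lies well below the other 3, and the combination lies between. Exons of MCM2 overlap those of TPRA1 and of a second gene on the opposite strand, and the strandedness of the counting is not given in the sources used here, so reads of these genes may be mixed. MCM4 was at 470.1, 292, 424 and 315 CPM in the same order, so that the 2 libraries with 13cRA were the low ones. MCM7, the most abundant member per length, was at 958, 711, 787 and 679 CPM. For MCM7 all 3 drug libraries were below DMSO and the combination was the lowest. MCM6 was at 216, 153, 207 and 187 CPM, while MCM3 (411, 355, 359 and 335 CPM) and MCM5 (154, 131, 136 and 111 CPM) had their lowest level in the combination. The helicase subunits thus differed among themselves in which of the 2 libraries with 13cRA was lower, with 3 of 6 each way.

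The helicase activators followed the ring. GINS1, a subunit of the GINS complex, had the widest difference of the whole list, from 31.7 CPM in DMSO (28.4 to 35.1) to 9.21 CPM in 13cRA (7.28 to 11.5), with 28.3 CPM in doxazosin (24.7 to 32.2) and 21.5 CPM in the combination (18.6 to 24.7). The log2 difference of GINS1 between 13cRA and DMSO was -1.68, and it was -0.64 among cells of 4000 to 4600 genes. GINS2 was at 172, 111, 185 and 127 CPM, and CDC45, which joins the ring with GINS, at 122, 83.9, 108 and 106 CPM. MCM10, needed to activate the helicase, was at 112, 93.8, 110.3 and 98.0 CPM. In these genes 13cRA was the lowest library. GINS4 was scarce, at 9.06, 7.09, 6.63 and 4.68 CPM, and its difference between 13cRA and DMSO ran from -0.66 to 0.16 over the alternatives. GINS3 was the only member of the list above DMSO in the combination, at 72.5 CPM in DMSO (67.5 to 77.6), 61.4 CPM in 13cRA, 57.4 CPM in doxazosin and 76.0 CPM in the combination (70.5 to 81.9). The intervals of GINS3 in DMSO and the combination overlap.

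**Figure D2:**
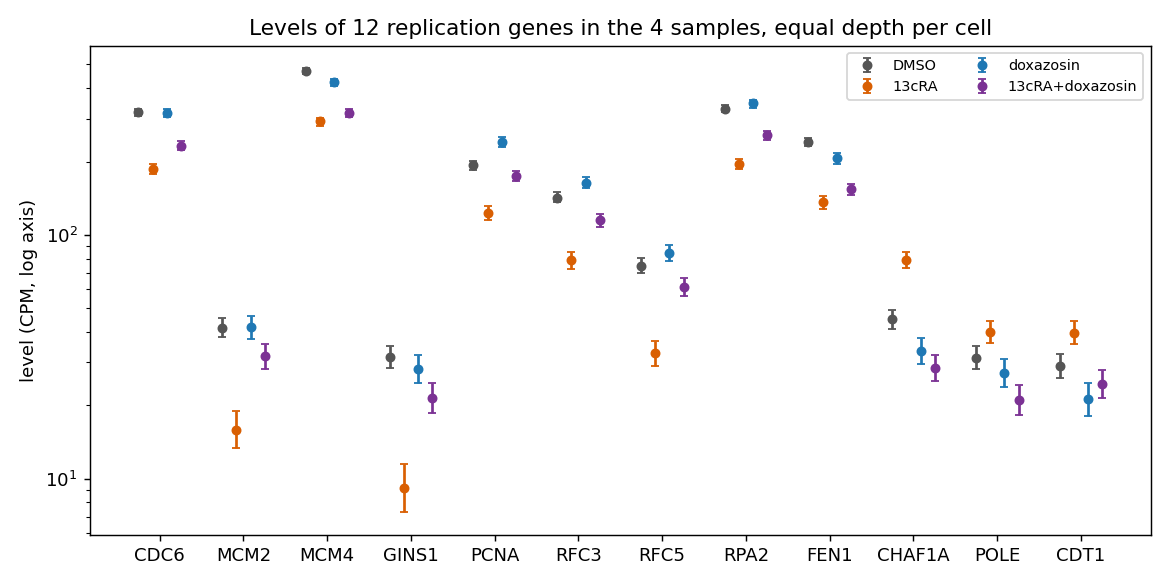
Level in CPM (log axis) of 12 replication genes in the 4 samples at 34000 counts per cell, with exact 95% Poisson intervals of the summed counts as bars. For CDC6, MCM2, MCM4, GINS1, PCNA, RFC3, RFC5, RPA2 and FEN1 the 13cRA level is the lowest and the combination second lowest, whereas CHAF1A, POLE and CDT1 are highest in 13cRA.

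The polymerase and primase genes were divided. PRIM1, the catalytic primase subunit, was at 93.9, 61.3, 92.9 and 81.0 CPM in DMSO, 13cRA, doxazosin and the combination, and POLD3, an accessory subunit of polymerase delta, at 66.3, 45.2, 59.2 and 52.1 CPM. POLE2, the second subunit of polymerase epsilon, was at 38.1, 29.2, 36.8 and 31.9 CPM. These 3 were lowest in 13cRA. POLA1, the catalytic subunit of polymerase alpha, was nearly level at 64.6, 60.8, 66.0 and 57.0 CPM, and its partner POLA2 was at 41.5, 37.7, 33.5 and 29.2 CPM. The catalytic subunits of the leading- and lagging-strand polymerases stood above DMSO in 13cRA: POLE at 31.4 CPM in DMSO (28.2 to 34.9) and 40.0 CPM in 13cRA (35.9 to 44.5), with 27.2 CPM in doxazosin and 21.1 CPM in the combination (18.3 to 24.3). POLD1 was at 8.34 CPM in DMSO (6.73 to 10.2), 11.5 CPM in 13cRA (9.29 to 14.0), 4.88 CPM in doxazosin (3.47 to 6.67) and 5.01 CPM in the combination (3.67 to 6.68). For POLD1 the DMSO and 13cRA intervals overlap, and both libraries with doxazosin were low. The sign of POLD1 between 13cRA and DMSO also changed with the setting, from -0.16 to 0.73.

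The clamp and its loader were the role group with the lowest median in 13cRA, -0.64. There 5 of 5 genes were lower, where 51.6% of all genes were, and 3 were lower past the fold, where 12.7% were. Over the alternatives RFC2 reached 0.05. PCNA, the sliding clamp, was at 193 CPM in DMSO (184 to 201), 123 CPM in 13cRA (115 to 131), 240.4 CPM in doxazosin (229.8 to 251) and 175 CPM in the combination (166 to 183). The 4 intervals of PCNA do not overlap, with doxazosin the highest and 13cRA the lowest. RFC5 was at 74.9, 32.7, 84.4 and 61.3 CPM in the same order, and RFC3 at 142, 78.7, 164 and 115 CPM. RFC5 exons overlap WSB2 on the opposite strand, with the same uncertainty as for MCM2. RFC4 was at 98.5, 66.3, 98.9 and 95.4 CPM and RFC2 at 168, 114, 134 and 114 CPM. In doxazosin alone 4 of these 5 genes were at or above DMSO, with a median of 0.17, and RFC2 was below it, where 52.6% of all genes were.

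Genes of single-strand binding and lagging-strand processing were lower in 13cRA in 5 of 5 cases, where 51.6% of all genes were, with a median of -0.58. FEN1, the flap endonuclease that trims Okazaki fragments, was at 239.5 CPM in DMSO (231 to 249), 136 CPM in 13cRA (128 to 144), 206 CPM in doxazosin (196 to 216) and 154 CPM in the combination (146 to 162). FEN1 was past the fold in both libraries with 13cRA against DMSO, at -0.82 and -0.63, and its exons overlap those of FADS2 and TMEM258. RPA2, the middle subunit of the single-strand binding protein RPA, was at 329.6, 195, 346 and 256 CPM, and RPA1, the large subunit, at 231, 154, 214 and 180.1 CPM. The small subunit RPA3 was nearly level, at 121, 116, 126 and 109 CPM. LIG1, the ligase that joins Okazaki fragments, was scarce at 11.9, 10.5, 10.0 and 7.95 CPM. Between 13cRA and DMSO, RPA3 and LIG1 changed sign over the alternatives, from -0.43 to 0.12 and from -0.30 to 0.06. The subunits of RPA therefore did not share 1 size of difference, with -0.75 for RPA2, -0.58 for RPA1 and -0.07 for RPA3 between 13cRA and DMSO.

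The last role group held the clearest exception. CHAF1A and CHAF1B are the large and middle subunits of CAF-1, which deposits histones behind the fork. CHAF1A was at 45.2 CPM in DMSO (41.3 to 49.3), 79.3 CPM in 13cRA (73.4 to 85.5), 33.5 CPM in doxazosin (29.6 to 37.8) and 28.6 CPM in the combination (25.3 to 32.3). CHAF1B was at 72.6, 48.4, 77.8 and 58.7 CPM. In 13cRA the 2 subunits thus lay on opposite sides of DMSO, at 0.80 for CHAF1A and -0.57 for CHAF1B, whereas in the combination both were below it. The share of cells with a CHAF1A count was nearly equal in DMSO (52.1%) and 13cRA (51.4%), so its higher level there came with more counts in the cells that had any. Of all genes, 85.7% had a lower share of cells with a count in 13cRA. A lower mean count in such cells was found for 12.8%. Exons of CHAF1A overlap UBXN6 on the opposite strand. CLSPN, which encodes the checkpoint adaptor claspin, was at 204, 244, 188 and 179.7 CPM, highest in 13cRA. SLBP, which binds histone mRNAs, was at 58.6, 46.8, 47.7 and 52.5 CPM, and TIPIN, a fork protection factor, at 59.3, 49.1, 50.8 and 46.2 CPM.

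The genes above DMSO in 13cRA are mostly rich in G and C. The transcripts of CDT1 (64.9% GC), POLD1 (65.0%), POLE (55.6%) and CHAF1A (57.6%) all lie in the band of 55% GC or more, which holds 8 of the 38 genes, and there the median log2 difference between 13cRA and DMSO was 0.09 for the replication genes and 0.09 for all genes in the band. In that band 20.8% of all genes were higher past the fold. Below 45% GC the replication genes had a median of -0.44 against -0.06 for all genes, from 45 to 50% a median of -0.58 against -0.06, and from 50 to 55% a median of -0.32 against -0.01. In the combination the replication genes of the richest band were at -0.51, with all genes there at -0.16. The lower level of replication genes in the combination thus appeared in all 4 bands, and that in 13cRA in the 3 bands below 55%. The part of GC content in these differences was not tested.

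**Figure D3:**
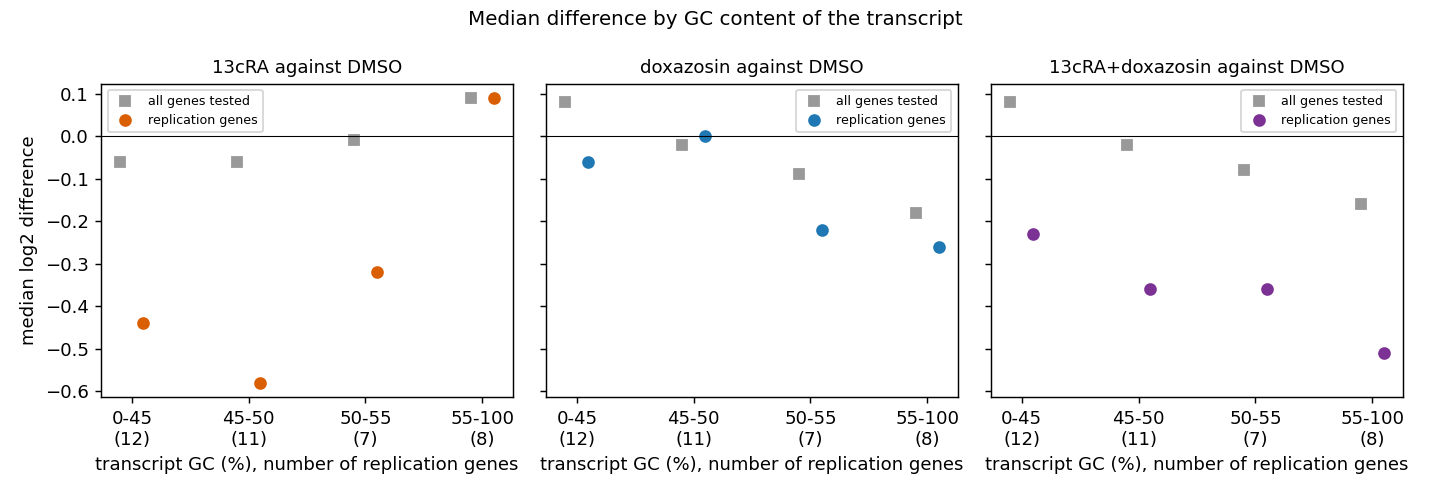
Median log2 difference from DMSO (vertical axis) in 4 bands of transcript GC content (horizontal axis, with the number of replication genes in brackets), for the 38 replication genes and for all genes tested, in each drug library. In 13cRA the 2 medians meet at 0.09 in the band of 55% or more, and in the combination the replication genes lie lower in every band.

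Doxazosin alone lay closest to DMSO over all cells. Of the 38 genes 27 were lower and 11 higher, with a median of -0.13 (interval -0.20 to -0.02) against -0.016 for all genes, of which 52.6% were lower. Past the fold was 1 lower gene, POLD1 (2.63% of the list, against 4.08% of all genes), and no higher one (against 2.80%). A second random draw left none, and POLD1 rests on few counts. Under all 14 ways of filtering, thinning and scaling 21 of the 38 genes were below DMSO, and 15 in all 16 settings. The share of all genes for this was not computed. Among cells of 4000 to 4600 genes (105 DMSO and 38 doxazosin cells) the median was -0.33, with 7 genes lower past the fold, where 14.8% of all genes were. The share of cells with a count was lower for 29 of the 38 genes (76.3%), against 44.0% of all genes, and the mean count in cells with a count was lower for 27 (71.1%), against 60.1%. MCM2 (41.7 and 41.8 CPM), CDC6 (318 and 316 CPM) and RFC4 (98.5 and 98.9 CPM) had nearly the same level in DMSO and doxazosin, and the farthest above was PCNA, by 0.32.

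In the combination 37 of the 38 genes were below DMSO, all but GINS3, with a median of -0.35 (interval -0.45 to -0.24) against -0.011 for all genes, of which 51.4% were lower. Past the fold 4 genes were lower, GINS4, POLD1, FEN1 and CHAF1A (10.5%, against 6.28% of all genes), and none higher (against 6.18%). Unthinned sums gave 11 genes lower past the fold, against 7.46% of all genes. Under all 14 ways of filtering, thinning and scaling 34 of the 38 genes were below DMSO. With the windows of depth and gene number added, 23 were below it in all 16 settings. The share of all genes below DMSO in every setting was not computed. The median gene number of its cells at equal depth was 4705, against 4679.5 in DMSO. Among cells of 4000 to 4600 genes the median was lower still, -0.55, with 18 genes lower past the fold, where 13.7% of all genes were (105 DMSO and 79 combination cells). Among cells of 34000 to 120000 counts before thinning it was -0.16, with 27 genes lower, 11 higher and only 38 combination cells left. These comparisons with DMSO share that 1 control sample.

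Against doxazosin, the other library that adding 13cRA can be read from, 34 of 38 genes were lower in the combination, with a median of -0.22 (interval -0.38 to -0.18) against -0.001 for all genes, of which 50.1% were lower. No gene was past the fold, where 4.91% of all genes were lower and 6.70% higher past it. The lowest were GINS2 at -0.54, RFC3 at -0.51 and PCNA at -0.46. Under all 14 ways of filtering, thinning and scaling 24 of the 38 genes were below doxazosin, and 12 in all 16 settings. The share of all genes for this was not computed. Among cells of 34000 to 120000 counts (58 doxazosin and 38 combination cells) the median was -0.01, with 19 genes lower and 19 higher. Past the fold there, 7 were lower, where 14.4% of all genes were, and 2 higher, with RFC3 at -0.93 and GINS2 at -0.83. Across both pairs, 31 of 38 genes (81.6%) were lower with 13cRA than without it, against 32.8% of all genes.

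Against 13cRA alone, the combination was higher for 23 genes and lower for 15, with a median of 0.14 (interval -0.09 to 0.27) against 0.001 for all genes, of which 49.9% were lower. MCM2, GINS1 and RFC5 were higher past the fold, at 0.95, 1.14 and 0.89 (7.89% of the list, against 11.2% of all genes). CDT1, POLD1, POLE and CHAF1A were lower past it, at -0.68, -1.05, -0.89 and -1.44 (10.5%, against 12.6%). These shares are near the background, and the comparison uses the same 13cRA sample as that with DMSO. Among cells of 4000 to 4600 genes the median turned to -0.48, with 14 genes lower past the fold and 0 higher, where 17.7 and 12.4% of all genes were, and GINS1 and RFC5 turned to -0.55 and -0.27.

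The order of the 4 libraries gives the same picture gene by gene. DMSO was the highest library for 21 of the 38 genes (55.3%, against 21.6% of all genes) and the lowest for none (against 17.6%). The lowest was 13cRA for 22 genes (57.9%, against 37.0%), the combination for 13 (34.2%, against 20.6%) and doxazosin for CDT1, GINS3 and POLD1 (7.89%, against 24.9%). The combination was the highest for GINS3 alone (2.63%, against 20.2%). The order 13cRA, combination, DMSO from low to high held for 22 genes (57.9%, against 20.6%). The departure from additivity, which is the combination minus 13cRA minus doxazosin plus DMSO on the log2 scale, had a median of 0.20 (interval 0.09 to 0.34) against 0.035 for all genes. It ranged from 1.29 for GINS1 and 0.95 for MCM2 to -0.69 for POLE and -1.02 for CHAF1A. Among cells of 4000 to 4600 genes its median turned to -0.17.

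In single cells the lower levels came with a tail of cells that held few replication transcripts. The 38 genes together gave a median of 196 counts per DMSO cell of 34000, with 150 for 13cRA, 179 for doxazosin and 153 for the combination. At the 90th percentile the samples were at 275, 244, 268 and 251 counts, and at the 75th at 242, 196, 232 and 203. At the 10th percentile they were at 115, 29.8, 89.2 and 47.9 counts. Both libraries with 13cRA lay below DMSO at each of these percentiles. The upper parts of the distributions thus differed less than the lower parts. Cells with under 50 counts made up 1.22% of DMSO cells (4 of 328, exact binomial 95% interval 0.333 to 3.09%), 15.7% of 13cRA cells (39 cells, 11.4 to 20.8%), 5.53% of doxazosin cells (13 cells, 2.98 to 9.27%) and 10.7% of combination cells (29 cells, 7.31 to 15.1%). The cut of 50 was chosen after the values were seen, 3, 20, 7 and 22 cells lie within 20% of it, and the intervals cover the sampling of cells only. With a cut of 100 the shares were 7.01, 30.9, 11.5 and 23.7%.

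**Figure D4:**
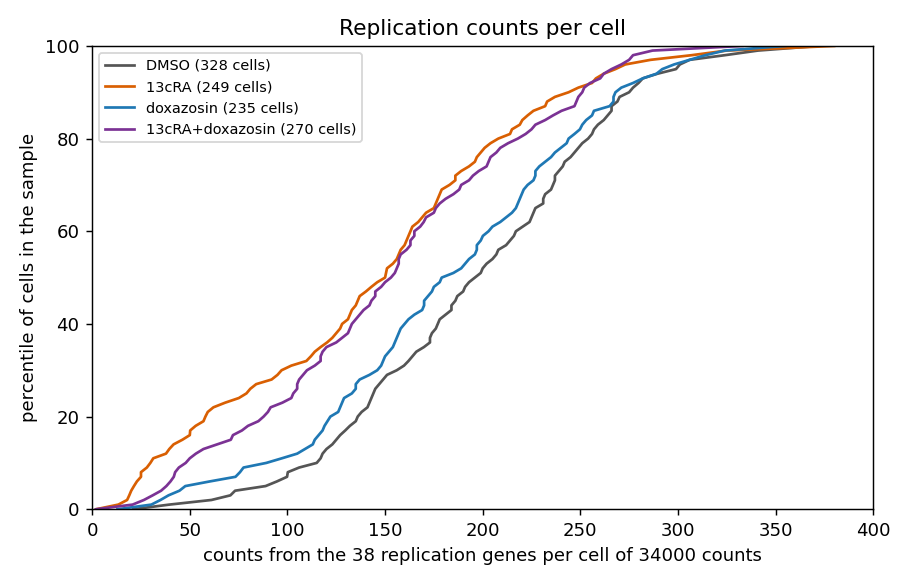
Counts from the 38 replication genes per cell of 34000 counts (horizontal axis) against the percentile of cells in each sample (vertical axis). The curves of 13cRA and the combination run left of DMSO except at the highest 13cRA cell (380 against 372 counts), with 29.8 and 47.9 counts against 115 at the 10th percentile and 244 and 251 against 275 at the 90th.

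The cells with under 50 counts also differed in other measures. In 13cRA they held a median of 3673 genes, against 3938 in the other cells, and 16.6% mitochondrial counts against 13.0%. In the combination they held 4410 against 4752 genes and 12.7 against 9.86% mitochondrial counts, and their depth before thinning was greater, with medians of 402249 against 220840 counts. The rank correlation across cells between replication counts and genes detected was 0.24 for DMSO, 0.34 for 13cRA, 0.32 for doxazosin and 0.41 for the combination, over the cells given above, which share library and depth. The part of RNA quality in this tail was not tested. When only cells with at least 50 replication counts were summed, the median difference from DMSO was -0.24 in 13cRA and -0.23 in the combination, and with at least 100 it was -0.17 and -0.15. Because the cut uses the genes themselves, it narrows a difference with or without a tail, so these values cannot give the tail's weight.

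The share of cells with a count was below DMSO for all 38 genes in 13cRA, but so was it for 85.7% of all genes, and the median log2 ratio of the shares was -0.51 against -0.35. RFC5 had a count in 67.4% of DMSO cells and 28.9% of 13cRA cells. GINS1 had a count in 41.2% and 11.6% of cells, and MCM2 in 44.8% and 17.7%. Among cells with a count, the mean count was lower in 13cRA for 13 of the 38 genes (34.2%), against 12.8% of all genes. The median log2 ratio of these mean counts was 0.14 for the list, against 0.38 for all genes. In the combination all 38 shares were again below DMSO, where 52.7% of all genes were, with a median of -0.19 against -0.01, and the mean count in cells with a count was lower for 31 genes (81.6%), against 52.0%. The combination thus had lower shares for the list in a library whose genes at large were detected about as often as in DMSO. Against doxazosin, the combination had a lower share for 34 genes (89.5%, against 57.8%) and a lower mean count in cells with a count for 28 (73.7%, against 42.8%). Against 13cRA it had a lower share for 3 genes (7.89%, against 12.7%) and a lower mean count in such cells for 31 (81.6%, against 87.4%), both near the background. CDC6 was detected in 91.2% of DMSO, 70.3% of 13cRA, 88.9% of doxazosin and 80.0% of combination cells, and PCNA in 91.2, 62.7, 91.1 and 83.3%.

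**Figure D5:**
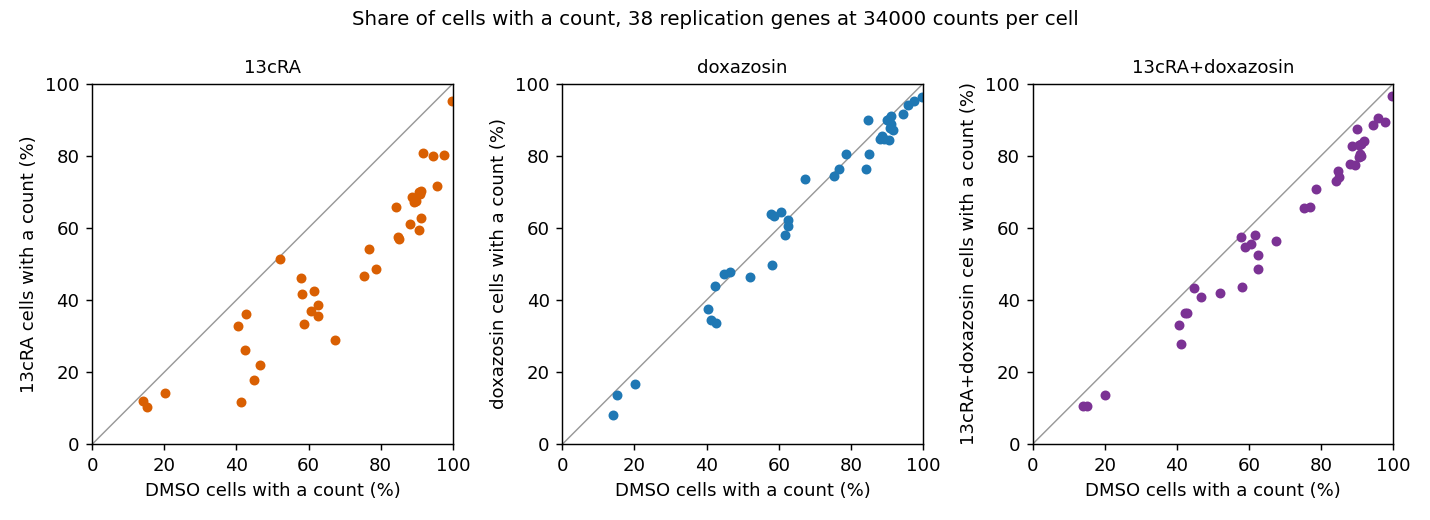
Percent of cells with at least 1 count of each of the 38 replication genes in DMSO (horizontal axis) against 13cRA, doxazosin and the combination (vertical axes), at 34000 counts per cell. The line marks equal shares; all 38 points lie below it for 13cRA and the combination, and 29 do for doxazosin.

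The genes varied together within samples to different degrees. The rank correlation of each gene with the summed counts of the other 37, across cells of a sample, had a median of 0.26 for DMSO, 0.32 for 13cRA, 0.33 for doxazosin and 0.39 for the combination. CDC6 (0.55 to 0.66 over the 4 samples), MCM4 (0.54 to 0.63), MCM3 (0.56 to 0.60) and FEN1 (0.49 to 0.61) followed the others most closely. The scarce POLD1 (-0.01 to 0.11) and LIG1 (0.05 to 0.17) did so least, and RPA3, which is not scarce, was at 0.04 in DMSO and 0.25 in both libraries with 13cRA. Correlations of sparse counts are damped by low levels and are given as a description only. CHAF1A, although higher in 13cRA, was correlated with the other genes there (0.45) more than in DMSO (0.17), doxazosin (0.26) or the combination (0.25).

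Per length of merged exons, levels in DMSO ran from 219 CPM per kb for MCM7, 163 for RPA2 and 131 for PCNA to 1.81 for LIG1, 1.69 for POLD1 and 1.65 for GINS4. Of the 38 genes 19 have exons that overlap another gene in GENCODE 29 on GRCh38, 14 of them on the opposite strand. The authors' own annotation release is unknown here. In GENCODE 29 GINS1 lies on chromosome 20 from 25407727 to 25452628, CDC6 on chromosome 17 from 40287633 to 40304657, and CHAF1A on chromosome 19 from 4402662 to 4445018. All 3 are protein-coding genes on the plus strand.

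A second list of 38 genes of the pathway, with further ORC, polymerase, primase, loader and histone chaperone subunits and the origin firing kinase, also lay mostly below DMSO, with smaller medians. Of its genes 34 were measured, and MCM9, POLD4, RNASEH2A and CHTF8 were below a mean of 5 CPM. Against DMSO 24 of 34 were lower in 13cRA (70.6%, against 51.6% of all genes), with a median of -0.24 (interval -0.40 to -0.03). Past the fold 6 were lower (17.6%, against 12.7%) and 1 higher (2.94%, against 13.2%). In doxazosin the median was -0.06 and none was past the fold, where 4.08% of all genes were lower past it and 2.80% higher. In the combination 29 were lower (85.3%, against 51.4%), with a median of -0.18 and 3 lower past the fold (8.82%, against 6.28%). CDC7, the kinase that fires origins, was at 39.5 CPM in DMSO, 25.3 CPM in 13cRA, 33.5 CPM in doxazosin and 34.5 CPM in the combination. ASF1B, a histone chaperone that works with CAF-1, was at 57.4, 33.3, 44.2 and 28.9 CPM, and its relative ASF1A at 87.2, 51.0, 101 and 81.8 CPM. POLE3, a small subunit of polymerase epsilon, was at 276, 163, 263 and 225 CPM, and MTBP, which acts in origin firing, at 15.0, 8.50, 12.3 and 11.7 CPM. CHTF18, part of an alternative clamp loader, was the gene above DMSO past the fold in 13cRA, at 4.75 and 9.57 CPM. These 6 had the widest differences between 13cRA and DMSO on that list, and 5 of them were lower.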

How the data were processed

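The authors deposited whole-number read counts of every gene in each of 1287 cells, with the sample in the column name; cell names carry no barcodes, 0 names are shared between samples, and 0 cells have identical profiles. Per the submitters' processing notes, tools included STAR 2.7.8a, fastp 0.23.3, featureCounts, Seurat 4.3.0 and bcl2fastq, and builds GRCh37 and GRCh38.p13, without roles. Annotation and strandedness: not given in the sources used here. Cells with at least 500 genes and at most 25% mitochondrial counts were kept (1197), with 22636509 to 72192743 counts per sample. Doublets were not called, since wells were chosen by imaging. Thinning to 34000 counts (seed 1) kept 1082 cells. Intervals are exact Poisson for levels, Clopper-Pearson for shares and binomial ranks for medians, at 95%. The ranks take the genes of a list as independent, which genes that vary together are not. Computation used numpy 2.4.6, scipy 1.17.1 and pandas 2.3.3; edgeR 4.0.16 and DESeq2 1.42.0 gave only alternative scaling factors. All 38 genes were open for naming, with full values for those of widest difference in each role, and 6 of the second list by their 13cRA difference. The genes and lists were chosen with earlier results of these data known. The summing script was tested on simulated data. Alternatives covered thinning, cell filters, scaling, pseudocount, low values, GC bands and cell windows. Of the adrenergic markers, 1 is not reported here.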

Additional observations from a re-analysis of the deposited data

Results flagged for a closer look

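For 2 replication genes 13cRA stood on opposite sides of its control with and without doxazosin, with a counting-error interval of each ratio that leaves out equality; with 1 sample for each treatment, this difference was not tested. GINS3, a GINS complex subunit, was lower in 13cRA than in DMSO, at -0.23 on the log2 scale, and higher in the combination than in doxazosin, at 0.40, so the 2 differences were -0.63 apart. POLE, the catalytic subunit of polymerase epsilon, was higher in 13cRA than in DMSO, at 0.34, and lower in the combination than in doxazosin, at -0.35, so they were 0.69 apart. For POLE the Poisson intervals of the levels in doxazosin (23.7 to 31.0 CPM) and the combination (18.3 to 24.3 CPM) overlap. The sides were no longer opposite for POLE among cells of 34000 to 120000 counts, where the combination stood 0.28 above doxazosin, nor for GINS3 among cells of 4000 to 4600 genes, where 13cRA stood 0.27 above DMSO.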

How the results depend on the processing

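No paired analysis was possible because each treatment has 1 sample. Over 17 alternatives the median log2 difference ranged from -0.58 to -0.05 for 13cRA against DMSO, -0.33 to -0.10 for doxazosin, -0.55 to -0.16 for the combination, -0.48 to 0.28 for the combination against 13cRA, and -0.36 to -0.01 against doxazosin, and the departure from additivity from -0.17 to 0.34. The GC bands and the fit with no random draw were chosen after seeing the data. TMM factors moved the median of all genes in 13cRA to -0.17, and that of the list to -0.58 (0.28 for the combination against 13cRA). Such factors move every gene by about the same amount, so the list stayed -0.41 from all genes by construction. In what follows the counts are genes past the fold, and the cause was not tested. The share of all genes past it is in brackets, or given above, for the settings where it was computed. Counts without such a share cannot be set against the background. Unthinned sums gave 19 lower in 13cRA (13.2%) and 11 lower in the combination (7.46%). They also gave 5 higher in the combination than in 13cRA (12.8%), 1 lower than in doxazosin (6.39%), and a departure of 0.34. The mean of per-cell CPM gave 3 higher in 13cRA. Thinning to 17000 gave 2 higher in 13cRA, 2 lower in doxazosin, and in the combination 5 higher than in 13cRA and 3 lower than in doxazosin. A second draw gave 0 lower in doxazosin (4.06%) and 5 higher in the combination than in 13cRA (11.4%). No cell filter gave 18 lower in 13cRA, and so did TMM and DESeq2 factors, with 6 higher in the combination than in 13cRA under each. Under TMM and DESeq2 factors the median of all genes in 13cRA against DMSO was itself lower, at -0.17 and -0.12. At least 2000 genes per cell gave 1 lower in the combination than in doxazosin. A pseudocount of 5 CPM, a mean of at least 20 CPM and the GC bands each gave 0 lower in doxazosin, and 1, 2 and 2 lower in the combination. A fold of 2 left 3 lower and 0 higher in 13cRA, 0 lower in doxazosin and in the combination, and 2 lower and 1 higher in the combination than in 13cRA. Cells of 34000 to 120000 counts gave 2 higher in 13cRA (14.1%), 3 lower (12.7%) and 1 higher (7.89%) in doxazosin, and a median of -0.16 in the combination. Against doxazosin the combination there had a median of -0.01, with 7 lower (14.4%) and 2 higher (17%). Cells of 4000 to 4600 genes gave medians of -0.05 in 13cRA (4 lower, 3 higher), -0.33 in doxazosin (7 lower) and -0.55 in the combination (18 lower). For the combination they gave -0.48 against 13cRA (14 lower, 0 higher), 8 lower (14.4%) and 1 higher (15.3%) against doxazosin, and a departure of -0.17. GINS1 and RFC5 turned to -0.55 and -0.27 against 13cRA, and the departure of RFC5 to -0.43. Depth limits GINS4, POLD1 and LIG1, which lie at 4.68 to 11.9 CPM.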
